A study of Mus musculus with 8 samples.

Results

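The genes of the mouse proteasome, its assembly chaperones and its regulators were followed in livers with and without the splicing factor RBFOX2 in hepatocytes. Members were the protein-coding genes whose GRCm38 symbol begins with Psma, Psmb, Psmc, Psmd, Psme, Psmf or Psmg and a number, and 50 of 21519 protein-coding genes in the deposited table met that rule. A minimum of 80 counts over the 8 livers left 48 genes, and all 48 also passed the filter on low counts that preceded the test. The genes dropped were Psmb11, a catalytic subunit of the thymus with 2 counts in all, and Psmc3ip, a factor of meiotic recombination that only shares the prefix, with 39 counts. Just inside the limit were Psma8, an alpha subunit of the testis, with 118 counts, and Psme2b, a near copy of Psme2, with 120 counts. Reads of Psme2b and Psme2 may be shared between both genes.

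The proteasome is the protease that degrades proteins tagged with ubiquitin. Its 20S core is a barrel of stacked rings in which the alpha subunits form the outer gates and the beta subunits the inner chamber with the active sites. The 19S particle caps the barrel: a base with a ring of ATPases unfolds the substrate, and a lid removes the ubiquitin chain. Interferon-induced catalytic subunits can replace the constitutive ones to give the immunoproteasome, and NRF1 (encoded by Nfe2l1) is the transcription factor known for raising proteasome genes together when degradation is impaired, in liver as in other tissues.

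RNA-seq of poly(A) RNA was carried out on livers of 4 LWT mice (labelled wild-type, Rbfox2 loxP/loxP without Albumin-cre) and 4 LΔRbfox2 mice (labelled Rbfox2 knockout, Rbfox2 loxP/loxP with Albumin-cre), all on control diet for 12 weeks by the labels and fasted for 16 h. The Albumin promoter drives Cre in hepatocytes, so the other cells of the liver retain Rbfox2, and both genotypes carry the loxP alleles. The labels give no age, and they number the livers without saying that each came from its own animal, so p-values measure the spread between these livers. In bulk tissue fewer cells of a type and less RNA per cell cannot be told apart.

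Levels are given as CPM, the count of a gene per 1000000 counts of its library, after scaling of the libraries by the trimmed mean of M values (TMM). Values of single livers are always in the order of replicates 1 to 4. Library totals ranged from 37482458 to 56177588 counts, of which the members took 0.185% to 0.309% in LWT and 0.215% to 0.297% in LΔRbfox2. LΔRbfox2 replicates 3 and 4 stood apart in scaling: their TMM factors were 0.724 and 0.776 against 1.02 to 1.14 in the other 6 livers. The major urinary protein genes took 43.6% and 37.5% of their counts against 21.4% to 37.1% in the others. By that share LΔRbfox2 replicate 4 was close to LWT replicate 1 (37.1%), whose TMM factor was 1.02. Medians, sums and log2 fold changes are therefore also given without these 2 livers. The hepatocyte markers Alb, Apoa1, Ttr, Serpina1c and Cps1 were abundant in every liver, with a sum of 46718 to 68148 CPM in LWT and 51961 to 73282 CPM in LΔRbfox2. Rbfox2 itself was at 17.1, 10.4, 11.4 and 18.3 CPM in LWT and at 4.61, 6.09, 2.24 and 3.19 CPM in LΔRbfox2. The genotypes did not overlap, and the log2 fold change (LΔRbfox2 over LWT throughout) was -1.82 ± 0.32 (SE, n = 4 per genotype, edgeR quasi-likelihood adjusted p = 0.504, exact two-sided permutation p = 0.0286, the smallest that 4 against 4 livers allow). It was -1.43 without LΔRbfox2 replicates 3 and 4.

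Most proteasome mRNAs were higher on average in LΔRbfox2 livers, and none passed the test. By the edgeR quasi-likelihood test with Benjamini-Hochberg adjustment over 13856 genes, 0 of 48 members had an adjusted p of at most 0.05, against 0% of all genes tested, and the smallest adjusted p of a member was 0.504. DESeq2 and limma-voom also gave 0 members each, where DESeq2 called 0.0722% of all genes. At an unadjusted p under 0.05, 7 members were higher in LΔRbfox2 (Psma3, Psma5, Psma6, Psma7, Psmb1, Psmd10 and Psmg4), against 7.95% of all genes, and 0 were lower, against 1.83%. DESeq2 gave 8 such members and limma-voom 6, against 1206 and 759 of the 13856 genes. The log2 fold change lay above 0 for 43 of 48 members, against 48.4% of all genes, and its median was 0.35 over the members and -0.015 over all genes. Without LΔRbfox2 replicates 3 and 4, an alternative chosen after seeing the data, 39 of 48 members lay above 0, the median was 0.10, and 0 members had an unadjusted p under 0.05. Few genes of any kind reached that p with these livers left out: 82 of 14602 were higher and 89 lower. With library totals in place of TMM factors, also chosen after seeing the data, 29 of 48 lay above 0 with a median of 0.085, while the median of all genes moved to -0.23. The count of 7 also turned on single LWT and LΔRbfox2 livers: it was 0 without LWT replicate 1 or 4 or without LΔRbfox2 replicate 4, 1 without LWT replicate 3 or LΔRbfox2 replicate 3, 3 without LΔRbfox2 replicate 1, 24 without LWT replicate 2 and 21 without LΔRbfox2 replicate 2. The count over all genes moved with the same livers, from 1102 of 13856 with all livers. It was 1910 of 14136 without LWT replicate 2 and 2344 of 14005 without LΔRbfox2 replicate 2. Without LWT replicate 1 it was 423 of 14106, without LWT replicate 4 379 of 14080 and without LΔRbfox2 replicate 4 282 of 14307.

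**Figure D1:**
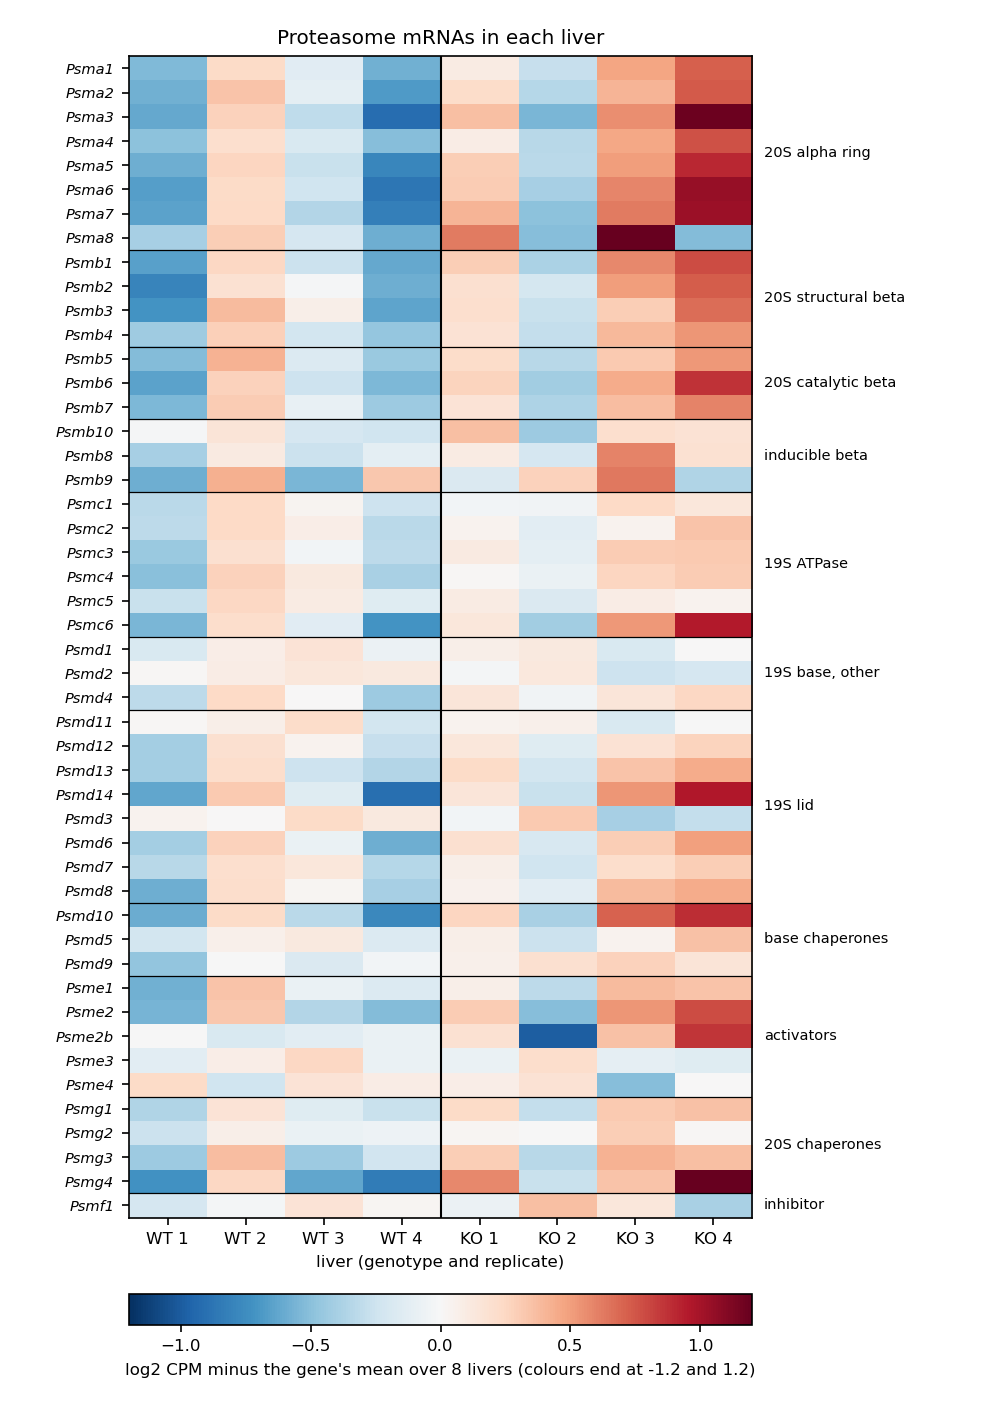
Heat map of the 48 members (rows, grouped by their place in the particle) in the 8 livers (columns, WT for LWT and KO for LΔRbfox2), coloured by log2 CPM minus the gene's mean over all livers. The 20S rows are darkest red in LΔRbfox2 replicate 4 and blue in LWT replicates 1 and 4 and in LΔRbfox2 replicate 2.

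The alpha ring, which gates the chamber and docks the regulatory particles, had a median log2 fold change of 0.64 over 8 genes. At an unadjusted edgeR p under 0.05, 4 of the 8 were higher, against 7.95% of all genes tested. Psma3, an alpha ring subunit, was at 68.6, 127, 84.9 and 55.7 CPM in LWT and at 135, 71.6, 154 and 236 CPM in LΔRbfox2. LΔRbfox2 replicates 1, 3 and 4 exceeded every LWT liver, while replicate 2 lay among the low LWT livers, and the log2 fold change was 0.83 ± 0.36 (SE, n = 4 per genotype, edgeR adjusted p = 0.504). Psma2 had the smallest value of the ring, with 34.9, 65.9, 48.0 and 32.5 CPM in LWT and 60.6, 41.1, 68.9 and 86.5 CPM in LΔRbfox2. LWT replicate 2 exceeded 2 of the 4 LΔRbfox2 livers, and the log2 fold change was 0.50 ± 0.28 (SE, n = 4 per genotype, edgeR adjusted p = 0.535). The other ubiquitous alpha genes lay between these, from 0.52 for Psma1 and Psma4 to 0.82 for Psma7. Psma8 was at 0.207 to 0.382 CPM in LWT and 0.217 to 0.756 CPM in LΔRbfox2, above the level of 3 counts, which is 0.053 to 0.080 CPM in these libraries. Without LΔRbfox2 replicates 3 and 4 the ring median was 0.27, and the log2 fold change was 0.26 for Psma3 and 0.13 for Psma2. With GC and length correction of each library the ring median was 0.28.

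The structural beta subunits, which line the inner rings and carry no active site, had a median log2 fold change of 0.50 over 4 genes. Psmb1 had the highest value of these, with 64.1, 120, 84.3 and 65.8 CPM in LWT and 123, 77.1, 150 and 173 CPM in LΔRbfox2. Again LΔRbfox2 replicate 2 was below LWT replicates 2 and 3, and the log2 fold change was 0.65 ± 0.29 (SE, n = 4 per genotype, edgeR adjusted p = 0.504). Psmb4 had the smallest, at 73.5, 121, 84.7 and 71.6 CPM in LWT and 111, 81.05, 129 and 143 CPM in LΔRbfox2. Its values overlapped in the same way, with a log2 fold change of 0.40 ± 0.23 (SE, n = 4 per genotype, edgeR adjusted p = 0.542). The group median was 0.16 without LΔRbfox2 replicates 3 and 4, with 0.23 for Psmb1 and 0.10 for Psmb4.

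The constitutive catalytic subunits Psmb5, Psmb6 and Psmb7 carry the chymotrypsin-like, caspase-like and trypsin-like activities, and their median log2 fold change was 0.38. Psmb5 was at 32.7, 62.45, 41.7 and 34.4 CPM in LWT and at 54.5, 37.05, 58.1 and 67.2 CPM in LΔRbfox2. For Psmb5 the log2 fold change was 0.34 ± 0.25 (SE, n = 4 per genotype, edgeR adjusted p = 0.591). LWT replicate 2 exceeded 3 of the 4 LΔRbfox2 livers. Psmb6 was at 49.7, 94.3, 65.3 and 53.4 CPM in LWT and at 93.4, 58.4, 106 and 142 CPM in LΔRbfox2. For Psmb6 the log2 fold change was 0.60 ± 0.29 (SE, n = 4 per genotype, edgeR adjusted p = 0.514). LWT replicate 2 also exceeded LΔRbfox2 replicates 1 and 2. Psmb7 was at 60.5, 108, 82.7 and 64.8 CPM in LWT and at 98.1, 67.9, 114 and 133 CPM in LΔRbfox2. For Psmb7 the log2 fold change was 0.38 ± 0.25 (SE, n = 4 per genotype, edgeR adjusted p = 0.568). In each of these genes LWT replicate 2 was the highest LWT liver and LΔRbfox2 replicate 2 the lowest LΔRbfox2 liver, and the genotypes overlapped. The values were 0.066 for Psmb5, 0.18 for Psmb6 and 0.039 for Psmb7 without LΔRbfox2 replicates 3 and 4.

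The inducible catalytic subunits of the immunoproteasome had a median log2 fold change of 0.17 over 3 genes, below the 0.38 of the constitutive catalytic subunits. The order of these groups turned round with GC and length correction, to 0.27 for the inducible and 0.064 for the constitutive subunits, and without LΔRbfox2 replicates 3 and 4 their medians were 0.068 and 0.066. Psmb8, which replaces Psmb5, was at 10.1, 14.3, 11.1 and 12.3 CPM in LWT and at 14.3, 11.6, 20.2 and 15.1 CPM in LΔRbfox2. For Psmb8 the log2 fold change was 0.35 ± 0.21 (SE, n = 4 per genotype, edgeR adjusted p = 0.545). LΔRbfox2 replicate 3 stood above the other livers, and the rest overlapped. Psmb9, which replaces Psmb6, was at 4.02, 8.14, 4.14 and 7.58 CPM in LWT and at 5.37, 7.32, 9.39 and 4.71 CPM in LΔRbfox2. For Psmb9 the log2 fold change was 0.17 ± 0.31 (SE, n = 4 per genotype, edgeR adjusted p = 0.812). LWT replicates 2 and 4 exceeded 3 of the 4 LΔRbfox2 livers. Psmb10, which replaces Psmb7, was at 9.48, 10.6, 8.30 and 8.08 CPM in LWT and at 12.3, 7.06, 10.99 and 10.8 CPM in LΔRbfox2. For Psmb10 the log2 fold change was 0.17 ± 0.21 (SE, n = 4 per genotype, edgeR adjusted p = 0.714). All 3 overlapped between genotypes, and their livers did not stand in the order seen in the constitutive subunits: LΔRbfox2 replicate 3 was the highest for Psmb8 and Psmb9. Psmb9 lies on the minus strand of chr17:34181987-34187764 (GRCm38) and overlaps Tap1 on the opposite strand, so reads of the 2 genes may not be separated. Tap1, a peptide transporter for antigen presentation, was at 12.0, 10.4, 7.53 and 16.6 CPM in LWT and at 8.70, 13.01, 9.22 and 6.29 CPM in LΔRbfox2. The sign of the Psmb9 value turned with the livers used, and its log2 fold change was -0.061 without LΔRbfox2 replicate 3 alone. With both LΔRbfox2 replicates 3 and 4 left out it was 0.068 for Psmb9, 0.087 for Psmb8 and 0.056 for Psmb10.

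To set the exchangeable pairs side by side, each level was divided by the kilobases of merged exon, and the inducible subunit was expressed as a share of the pair within a liver, a quantity that does not depend on library scaling. Psmb8 made up 7.61%, 5.76%, 6.62% and 8.69% of Psmb8 plus Psmb5 in LWT and 6.51%, 7.69%, 8.47% and 5.65% in LΔRbfox2, or 7.17% ± 1.27 against 7.08% ± 1.25 (SD, n = 4 per genotype). Psmb9 made up 4.53% ± 1.57 of Psmb9 plus Psmb6 in LWT and 3.73% ± 1.89 in LΔRbfox2, with the highest shares in LWT replicate 4 (6.77%) and LΔRbfox2 replicate 2 (6.03%). Psmb10 made up 19.3% ± 3.48 of Psmb10 plus Psmb7 in LWT and 16.9% ± 2.50 in LΔRbfox2. In each pair the constitutive mRNA was the more abundant per kilobase in all 8 livers, and the shares of the genotypes differed by less than the SD within a genotype. The size of a share depends on the length used. Mean LWT levels per kilobase of merged exon were 5.35 for Psmb10, 23.1 for Psmb7, 3.54 for Psmb8 and 47.6 for Psmb5. Per kilobase of the longest coding transcript, a choice made after seeing the data, they were 6.96, 68.2, 7.35 and 47.6 CPM per kb.

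**Figure D2:**
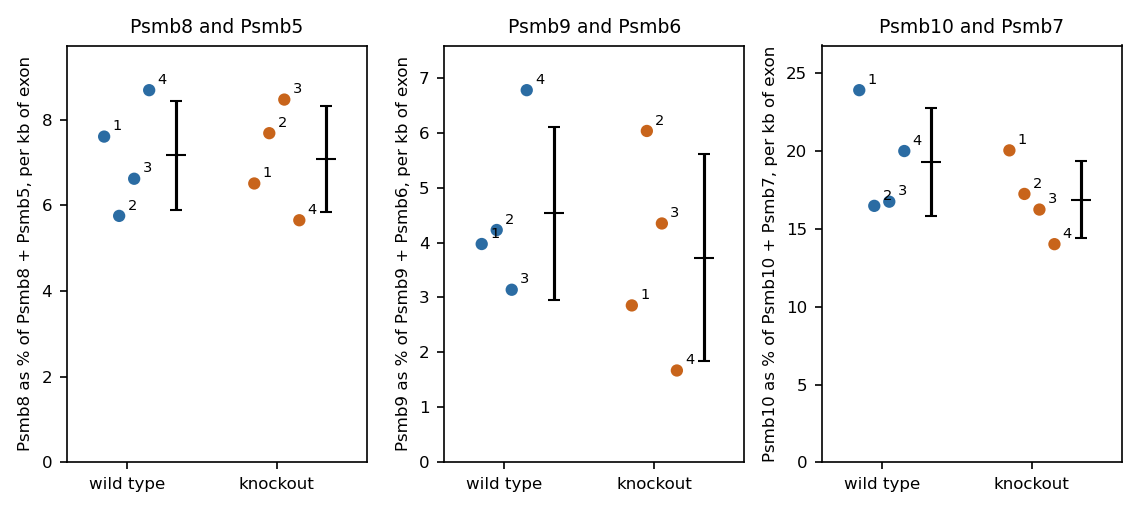
Share of each inducible catalytic subunit in the sum with its constitutive partner (y axes, percent of CPM per kb of exon) in the 4 wild-type (LWT, blue) and 4 knockout (LΔRbfox2, orange) livers; numbers are replicates and bars the mean ± SD. The genotypes overlap in all 3 panels, with means of 7.17% and 7.08% for Psmb8, 4.53% and 3.73% for Psmb9, and 19.3% and 16.9% for Psmb10.

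The 19S particle had a lower median log2 fold change than the core, 0.21 over 17 genes (range -0.17 to 0.67) against 0.55 over the 14 ubiquitous constitutive genes of the 20S core (range 0.34 to 0.83). Of these core genes 14 of 14 lay above 0, and of the 19S genes 14 of 17 did, against 48.4% of all genes tested. At an unadjusted edgeR p under 0.05, 5 core genes were higher and 0 genes of the 19S particle, against 7.95% of all genes. The core genes shared nearly the same order of livers, so these counts are not independent. Without LΔRbfox2 replicates 3 and 4 the medians were 0.16 for the core and 0.062 for the 19S genes, and with GC and length correction they were 0.24 and 0.077. The ATPases of the base ranged from Psmc5 to Psmc6. Psmc6 was at 46.3, 78.1, 61.7 and 41.2 CPM in LWT and at 74.4, 50.7, 97.0 and 131 CPM in LΔRbfox2, the liver order of the core genes. For Psmc6 the log2 fold change was 0.64 ± 0.31 (SE, n = 4 per genotype, edgeR adjusted p = 0.511). Psmc5 was at 34.5, 49.4, 44.5 and 37.4 CPM in LWT and at 44.4, 36.9, 44.3 and 42.8 CPM in LΔRbfox2. Its genotypes were nearly level, with a log2 fold change of 0.022 ± 0.17 (SE, n = 4 per genotype, edgeR adjusted p = 0.958) that took either sign as livers were left out (-0.082 to 0.12). Leaving out both LΔRbfox2 replicates 3 and 4 gave 0.11 for Psmc6 and -0.055 for Psmc5.

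The remaining base subunits were Psmd1, Psmd2 and Psmd4, with a median log2 fold change of 0.0013. Psmd4, a receptor for ubiquitin chains, was at 56.4, 82.9, 70.5 and 51.8 CPM in LWT and at 77.8, 68.3, 77.7 and 83.1 CPM in LΔRbfox2. For Psmd4 the log2 fold change was 0.23 ± 0.18 (SE, n = 4 per genotype, edgeR adjusted p = 0.610). LΔRbfox2 replicates 1, 2 and 3 lay within the LWT range. Psmd2, a scaffold of the base, was at 101, 106, 110 and 109 CPM in LWT and at 98.4, 109, 84.4 and 87.0 CPM in LΔRbfox2. The LWT livers were close together and LΔRbfox2 replicates 3 and 4, both among the 4 highest livers for every constitutive core gene, were the lowest here, with a log2 fold change of -0.17 ± 0.15 (SE, n = 4 per genotype, edgeR adjusted p = 0.642). Without these livers it was -0.058 for Psmd2 and 0.13 for Psmd4.

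In the lid the median log2 fold change was 0.28 over 8 genes. Psmd14, the metalloprotease that cuts off the ubiquitin chain, was at 24.5, 47.1, 34.2 and 20.2 CPM in LWT and at 41.9, 31.4, 54.4 and 73.5 CPM in LΔRbfox2. For Psmd14 the log2 fold change was 0.67 ± 0.32 (SE, n = 4 per genotype, edgeR adjusted p = 0.511). LΔRbfox2 replicates 3 and 4 exceeded every LWT liver. Psmd3, a structural subunit of the lid, was at 56.2, 54.9, 64.0 and 59.1 CPM in LWT and at 53.4, 67.7, 41.5 and 44.9 CPM in LΔRbfox2. For Psmd3 the log2 fold change was -0.17 ± 0.18 (SE, n = 4 per genotype, edgeR adjusted p = 0.678). The livers stood in a different order for these lid genes: LΔRbfox2 replicate 4 was the highest of all livers and replicate 2 the lowest of its genotype for Psmd14, while LΔRbfox2 replicate 2 was the highest of all livers for Psmd3. The lid median was 0.073 without LΔRbfox2 replicates 3 and 4, with 0.18 for Psmd14 and 0.026 for Psmd3.

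**Figure D3:**
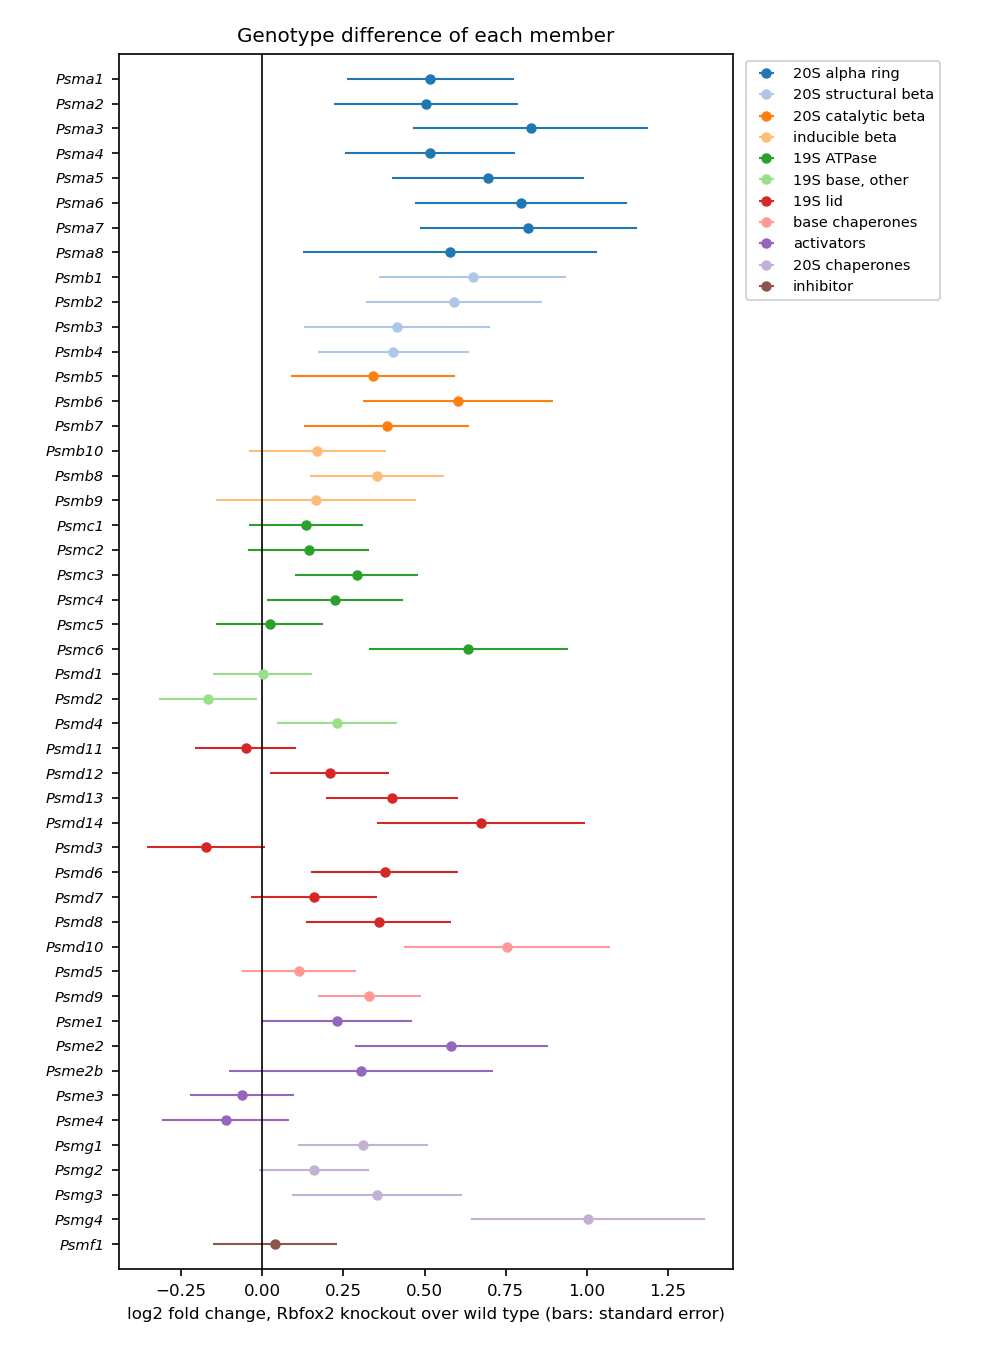
Log2 fold change of each of the 48 members, LΔRbfox2 over LWT (x axis), with points coloured by group and bars showing the standard error. All 14 constitutive 20S genes lie between 0.34 and 0.83, and the 5 points below 0 are Psmd2, Psmd3, Psmd11, Psme3 and Psme4.

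The chaperones of the base bind its ATPases before the particle closes, and their median log2 fold change was 0.33 over 3 genes. Psmd10, also known as gankyrin, was at 5.64, 10.02, 6.80 and 4.997 CPM in LWT and at 10.2, 6.53, 13.96 and 15.8 CPM in LΔRbfox2. For Psmd10 the log2 fold change was 0.75 ± 0.32 (SE, n = 4 per genotype, edgeR adjusted p = 0.504). The 3 highest livers were LΔRbfox2 replicates 4, 3 and 1. Psmd5 was at 15.3, 18.6, 19.4 and 15.9 CPM in LWT and at 18.7, 14.96, 18.4 and 22.8 CPM in LΔRbfox2. For Psmd5 the log2 fold change was 0.11 ± 0.18 (SE, n = 4 per genotype, edgeR adjusted p = 0.777). Psmd9 was the only member whose genotypes did not overlap, a pattern shown by 1.05% of all genes in the higher and 1.23% in the lower direction. It was at 31.1, 43.1, 38.4 and 42.3 CPM in LWT and at 45.2, 49.3, 52.3 and 48.0 CPM in LΔRbfox2. For Psmd9 the log2 fold change was 0.33 ± 0.16 (SE, n = 4 per genotype, edgeR adjusted p = 0.511). Psmd9 lies on the plus strand of chr5:123169413-123250131 (GRCm38) and overlaps Hpd, an abundant hepatocyte enzyme of tyrosine breakdown, on the opposite strand. Hpd was at 1340 to 1744 CPM in LWT and at 1385 to 2184 CPM in LΔRbfox2. For Hpd the log2 fold change was 0.19 ± 0.20 (SE, n = 4 per genotype, edgeR adjusted p = 0.677), and the share of Psmd9 reads that came from Hpd was not tested. Leaving out LΔRbfox2 replicates 3 and 4 gave 0.25 for Psmd10, -0.065 for Psmd5 and 0.26 for Psmd9.

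The chaperones of the 20S core assemble the alpha ring, and their median log2 fold change was 0.33 over 4 genes. Psmg4 had the largest value of any member, with 2.56, 5.02, 2.75 and 2.37 CPM in LWT and 6.30, 3.51, 5.38 and 10.4 CPM in LΔRbfox2. LΔRbfox2 replicates 1, 3 and 4 exceeded every LWT liver, and the log2 fold change was 1.003 ± 0.36 (SE, n = 4 per genotype, edgeR adjusted p = 0.504). Psmg2 had the smallest value of the chaperones, with 4.81, 6.07, 5.47 and 5.53 CPM in LWT and 5.85, 5.73, 7.07 and 5.82 CPM in LΔRbfox2. Apart from LΔRbfox2 replicate 3 the LΔRbfox2 livers lay within the LWT range, and the log2 fold change was 0.16 ± 0.17 (SE, n = 4 per genotype, edgeR adjusted p = 0.681). For Psmg4 it was 0.59 and for Psmg2 0.058 without LΔRbfox2 replicates 3 and 4.

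The activators bind the ends of the core in place of the 19S cap. Psme2, which forms the interferon-induced 11S ring with its neighbour Psme1, was at 29.5, 54.3, 33.9 and 30.3 CPM in LWT and at 53.8, 30.4, 62.8 and 74.8 CPM in LΔRbfox2. For Psme2 the log2 fold change was 0.58 ± 0.30 (SE, n = 4 per genotype, edgeR adjusted p = 0.521). LWT replicate 2 was above LΔRbfox2 replicates 1 and 2. Psme1 was at 36.4 to 68.6 CPM in LWT and 43.8 to 70.7 CPM in LΔRbfox2, with a log2 fold change of 0.23. The log2 ratio of Psme2 to Psme1 within a liver was -0.30, -0.34, -0.60 and -0.68 in LWT and -0.088, -0.52, -0.17 and 0.12 in LΔRbfox2, so that 3 of 4 LΔRbfox2 livers had a higher ratio than every LWT liver. Psme4, which encodes the large nuclear activator PA200, was at 83.8, 60.4, 79.8 and 75.9 CPM in LWT and at 75.4, 80.3, 49.9 and 71.6 CPM in LΔRbfox2. For Psme4 the log2 fold change was -0.11 ± 0.20 (SE, n = 4 per genotype, edgeR adjusted p = 0.794). The nuclear activator Psme3 had a log2 fold change of -0.063. Psmf1, an inhibitor of the core, was at 12.7 to 16.3 CPM in LWT and 11.1 to 18.8 CPM in LΔRbfox2, with a log2 fold change of 0.040. Of these genes Psme2 was at 0.16, Psme1 at -0.050, Psme4 at 0.035, Psme3 at 0.0087 and Psmf1 at 0.14 without LΔRbfox2 replicates 3 and 4.

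The livers stood in nearly the same order for every gene of the 20S core. For 14 of 14 constitutive core genes the 4 highest livers were LWT replicate 2 and LΔRbfox2 replicates 1, 3 and 4, and LΔRbfox2 replicate 4 was the highest. The lowest was LWT replicate 1 for 6 of them and LWT replicate 4 for 8. For the 19S genes LΔRbfox2 replicate 4 was the highest in 11 of 17, and LWT replicate 2 was among the 4 highest in 16 of 17. The highest liver exceeded the lowest by 1.99-fold to 4.23-fold for core genes (median 2.69) and by 1.28-fold to 3.64-fold for 19S genes (median 1.604). Within a genotype the median SD of log2 CPM was 0.34 for members and 0.36 for all genes tested. The same order ran through the table as a whole: the first principal component of all genes tested held 54.1% of the variance, with LΔRbfox2 replicates 4 and 3 and LWT replicate 2 at 1 end and LWT replicates 1 and 4 and LΔRbfox2 replicate 2 at the other. Its part in the genotype difference of the members was not tested.

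Summed per kilobase of exon, the 14 core genes reached 321, 586, 423 and 312 CPM per kb in LWT and 573, 379, 671 and 851 CPM per kb in LΔRbfox2. The means were 411 ± 127 and 618 ± 197 CPM per kb (SD, n = 4 per genotype), and LWT replicate 2 exceeded 2 LΔRbfox2 livers. The 17 genes of the 19S particle reached 275, 402, 357 and 282 CPM per kb in LWT and 367, 326, 399 and 430 CPM per kb in LΔRbfox2, with means of 329 ± 61.3 and 380 ± 44.7 CPM per kb (SD, n = 4 per genotype). The log2 ratio of core to 19S within a liver, which no library scaling can move, was 0.22, 0.54, 0.24 and 0.15 in LWT and 0.64, 0.22, 0.75 and 0.99 in LΔRbfox2. Of the 4 LΔRbfox2 livers 3 lay above every LWT liver and replicate 2 lay among the low ones, and the means were 0.29 ± 0.17 and 0.65 ± 0.32 (SD, n = 4 per genotype). With no scaling factors the log2 ratio of the genotype means was 0.30 for the core and -0.040 for the 19S genes, against 0.59 and 0.21 with TMM. Without LΔRbfox2 replicates 3 and 4 the TMM values were 0.21 for the core and 0.072 for the 19S genes, and the mean log2 ratio of core to 19S over the remaining LΔRbfox2 livers, 0.64 and 0.22, was 0.43 against 0.29 in LWT.

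**Figure D4:**
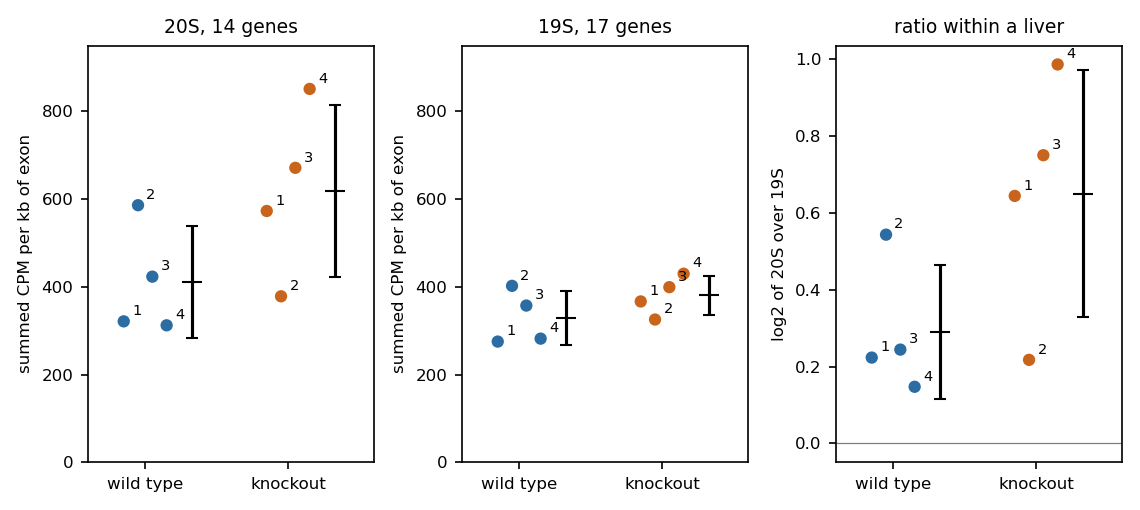
Summed levels of the 14 constitutive 20S genes and of the 17 genes of the 19S particle (CPM per kb of exon) and the log2 ratio of both sums, in the 4 wild-type (LWT, blue) and 4 knockout (LΔRbfox2, orange) livers; numbers are replicates and bars the mean ± SD. Core sums run from 312 to 851 CPM per kb and 19S sums from 275 to 430 CPM per kb, and LΔRbfox2 replicate 2 has a ratio of 0.22, within the LWT range.

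Per kilobase of merged exon in LWT, Psma6 (62.0 ± 21.5 CPM per kb), Psmb5 (47.6 ± 15.2) and Psmb4 (44.9 ± 11.6) were the most abundant members, and these neighbours differed by less than their SD (n = 4). The lowest ubiquitous member was the core chaperone Psmg3 (1.16 ± 0.34 CPM per kb), and the inducible subunits were at 5.35 ± 0.70 (Psmb10), 3.54 ± 0.54 (Psmb8) and 1.63 ± 0.60 CPM per kb (Psmb9). The order depended on the length used: per kilobase of the longest coding transcript, a choice made after seeing the data, Psmb6 (82.3 ± 25.3 CPM per kb) came before Psmb4 (74.04 ± 19.2) and Psma6 (73.4 ± 25.5).

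The members below 0 had a longer merged exon length by median than those above 0, with overlapping ranges (2949 to 8382 bases against 555 to 7265 bases). The median merged exon length was 4967 bases for Psmd2, Psmd3, Psmd11, Psme3 and Psme4 and 2607 bases for the 43 members above 0, and 2335 bases for core genes against 2820 for 19S genes. In the table as a whole the fold change moved with length too: the median log2 fold change of genes under 2000 bases was 0.40 for 15 members and 0.34 for all genes, from 2000 to under 4000 bases 0.38 for 23 members and 0.047 for all genes, and from 4000 bases 0.021 for 10 members and -0.14 for all genes. With each library corrected for gene length and GC content, 37 of 48 members lay above 0 and the median was 0.20. Of the members given in full, the sign turned with length correction alone for Psmb5 (-0.065), Psmb10 (-0.096), Psmc5 (-0.26), Psmg2 (-0.077) and Psme4 (0.023), and with library totals in place of TMM factors for Psmb9 (-0.082), Psmb10 (-0.066), Psmc5 (-0.21), Psmd4 (-0.0042), Psmd5 (-0.14) and Psmg2 (-0.077). Psmd3 (0.026) and Psme4 (0.035) lay above 0 without LΔRbfox2 replicates 3 and 4, while Psmd5 (-0.065) and Psmc5 (-0.055) lay below.

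Promoter sequence was examined for elements that members share. RefSeq windows (GRCm38.p6, from 250 bases before to 50 bases after a start) covered 40 of the 48 members in 43 windows. The core of the element bound by NRF1 and NRF2, TGACNNNGC, was present on either strand in 13.95% of the members' windows, in 12.4% of all windows and in 14.2% of those of genes tested. CCAAT was present in 30.2% of members' windows, 37.4% of all and 37.6% of those of genes tested, and TATAAA in 9.30%, 13.6% and 7.94%. CGGAAG, the core of sites for the ETS family of factors, was searched after the promoters had been seen. It was present in 51.2% of members' windows, 16.9% of all windows and 29.4% of those of genes tested, and within the particle in 13 of 14 19S genes that had a window, 4 of 11 constitutive core genes and 0 of 3 inducible genes. These matches are letters in a window and were not tested for binding. Shown here are 60 bases upstream of 2 catalytic core genes with TGACNNNGC in capitals and of 2 19S genes with CGGAAG in capitals, which reads CTTCCG where the match is on the other strand. They serve as examples of both elements, in the core and in the 19S cap, and are on the strand of the gene, 5′ to 3′. Each ends just before the RefSeq or the GENCODE start, whichever lies further upstream, which is the RefSeq start for Psmb6 and Psmd2 and lies 27 bases before it for Psmb5 and 44 bases before it for Psmd12. Their positions in GRCm38.p6 are chr14:54618023-54618082 (minus strand) for Psmb5, chr11:70525297-70525356 (plus) for Psmb6, chr16:20651592-20651651 (plus) for Psmd2 and chr11:107479424-107479483 (plus) for Psmd12.
Psmb5: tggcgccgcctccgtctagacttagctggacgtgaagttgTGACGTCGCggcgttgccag
Psmb6: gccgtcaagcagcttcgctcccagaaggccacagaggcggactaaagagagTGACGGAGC
Psmd2: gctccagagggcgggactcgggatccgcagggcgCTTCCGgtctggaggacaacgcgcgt
Psmd12: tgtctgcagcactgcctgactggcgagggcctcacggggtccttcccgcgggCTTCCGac

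Genes that make or control the proteasome were read beside the members, from lists set by function. Of 12 other proteasome parts and assembly factors tested, 0 had an unadjusted edgeR p under 0.05, and 9 lay above 0 with a median log2 fold change of 0.16. Over all genes tested, 48.4% lay above 0, and at that p 7.95% were higher and 1.83% lower. Pomp, the maturation factor of the core, was at 45.8, 77.0, 53.0 and 44.9 CPM in LWT and at 72.6, 48.1, 94.0 and 112 CPM in LΔRbfox2, in the liver order of the core genes. For Pomp the log2 fold change was 0.56 ± 0.28 (SE, n = 4 per genotype, edgeR adjusted p = 0.518). Txnl1, a thioredoxin bound to the 19S particle, was at 42.2, 72.0, 59.1 and 38.9 CPM in LWT and at 74.4, 49.6, 74.2 and 109 CPM in LΔRbfox2. For Txnl1 the log2 fold change was 0.53 ± 0.27 (SE, n = 4 per genotype, edgeR adjusted p = 0.523). Leaving out both LΔRbfox2 replicates 3 and 4 gave 0.099 for Pomp, 0.19 for Txnl1 and a median of 0.033.

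Of 12 genes of the NRF1 pathway tested, 9 lay below 0, with a median log2 fold change of -0.22, where 48.4% of all genes lay above 0. At an unadjusted edgeR p under 0.05 there were 0 higher and 2 lower, against 7.95% and 1.83% of all genes. Nfe2l1, which encodes NRF1, was at 79.4, 88.2, 88.7 and 87.7 CPM in LWT and at 59.3, 94.8, 56.9 and 55.9 CPM in LΔRbfox2. LΔRbfox2 replicates 1, 3 and 4 were below every LWT liver and replicate 2 above all of these. The log2 fold change of Nfe2l1 was -0.37 ± 0.20 (SE, n = 4 per genotype, edgeR adjusted p = 0.530). Core genes were high in LΔRbfox2 replicates 1, 3 and 4 and also in LWT replicate 2, where Nfe2l1 was level with LWT replicates 3 and 4. The relation of Nfe2l1 to the core genes was not tested. Syvn1, a ubiquitin ligase of the endoplasmic reticulum that acts on NRF1, was at 87.4, 46.7, 72.2 and 58.6 CPM in LWT and at 34.5, 52.9, 30.1 and 52.1 CPM in LΔRbfox2. For Syvn1 the log2 fold change was -0.64 ± 0.26 (SE, n = 4 per genotype, edgeR adjusted p = 0.504). LWT replicate 2 was below LΔRbfox2 replicates 2 and 4, so the groups overlapped. Sel1l, its partner, was at 126, 93.6, 131 and 112 CPM in LWT and at 78.1, 98.6, 73.0 and 94.8 CPM in LΔRbfox2. For Sel1l the log2 fold change was -0.43 ± 0.18 (SE, n = 4 per genotype, edgeR adjusted p = 0.504). Nfe2l2, which encodes NRF2, was at 27.7 to 37.2 CPM in LWT and 30.1 to 37.8 CPM in LΔRbfox2. For Nfe2l2 the log2 fold change was 0.12 ± 0.16 (SE, n = 4 per genotype, edgeR adjusted p = 0.738). Without LΔRbfox2 replicates 3 and 4 the median of the NRF1 pathway was -0.13 with 0 genes lower at an unadjusted p under 0.05, against 89 of 14602 genes tested. The log2 fold change was then -0.18 for Nfe2l1, -0.62 for Syvn1, -0.41 for Sel1l and 0.096 for Nfe2l2. The level of these mRNAs does not give the amount of processed protein.

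**Figure D5:**
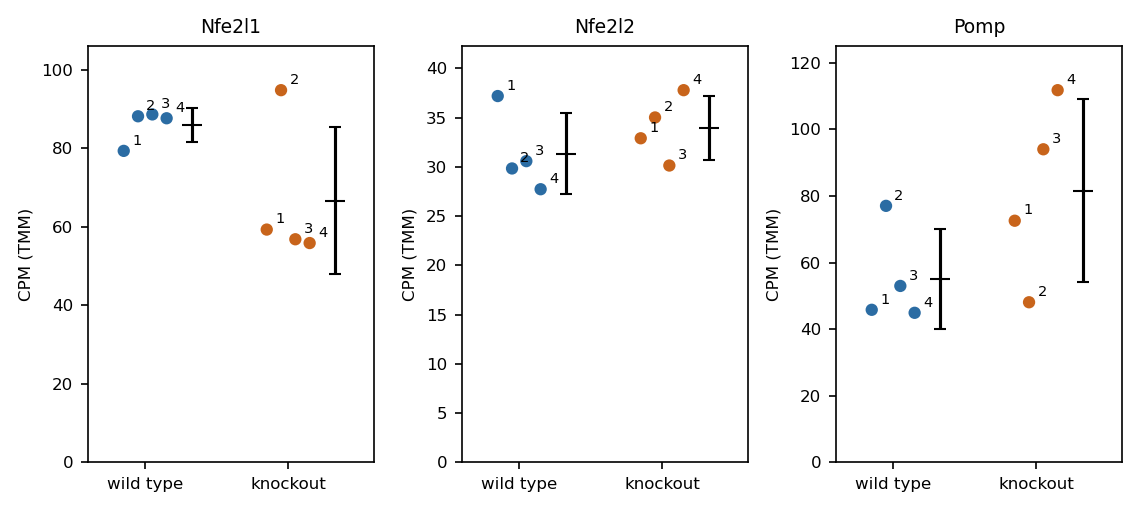
Levels (y axes, TMM-scaled CPM) of Nfe2l1, Nfe2l2 and the core maturation factor Pomp in the 4 wild-type (LWT, blue) and 4 knockout (LΔRbfox2, orange) livers; numbers are replicates and bars the mean ± SD. Nfe2l1 lies at 79.4 to 88.7 CPM in LWT and at 55.9 to 59.3 CPM in LΔRbfox2 replicates 1, 3 and 4, while Pomp is highest in LΔRbfox2 replicates 3 and 4.

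Ubiquitin genes and shuttles for tagged proteins had a median log2 fold change of -0.066 over 11 genes tested. At an unadjusted edgeR p under 0.05, 1 was higher, against 7.95% of all genes, and Ddi1 had no counts in any liver. Rps27a, which encodes a ubiquitin fused to a ribosomal protein, was at 107, 187, 112 and 89.9 CPM in LWT and at 265, 106, 229 and 342 CPM in LΔRbfox2. For Rps27a the log2 fold change was 0.93 ± 0.36 (SE, n = 4 per genotype, edgeR adjusted p = 0.504). LΔRbfox2 replicates 1, 3 and 4 exceeded every LWT liver. LΔRbfox2 replicate 4 was the highest liver. The Rps27a value was 0.55 without LΔRbfox2 replicates 3 and 4, and the median of these genes was then 0.035, with 0 at an unadjusted p under 0.05. Of 14602 genes tested in that setting, 82 were higher and 89 lower at that p.

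Of 11 class I antigen presentation genes, which load the peptides that the proteasome makes, 9 lay below 0, where 48.4% of all genes lay above 0. Their median log2 fold change was -0.19, and 0 had an unadjusted edgeR p under 0.05. H2-D1, a class I heavy chain, was at 275, 365, 317 and 316 CPM in LWT and at 272, 248, 273 and 218 CPM in LΔRbfox2. It was 1 of 2 class I genes that were lower without overlap between the groups, against 1.23% of all genes tested. For H2-D1 the log2 fold change was -0.33 ± 0.16 (SE, n = 4 per genotype, edgeR adjusted p = 0.518). Nlrc5, the activator of class I genes, was at 21.1, 4.14, 5.74 and 19.3 CPM in LWT and at 6.49, 9.45, 4.51 and 2.91 CPM in LΔRbfox2. For Nlrc5 the log2 fold change was -1.10 ± 0.58 (SE, n = 4 per genotype, edgeR adjusted p = 0.518). LWT replicates 1 and 4 were high and LWT replicates 2 and 3 low. The class I median was -0.21 without LΔRbfox2 replicates 3 and 4, with -0.31 for H2-D1 and -0.65 for Nlrc5.

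Of 16 interferon-response genes, 5 lay above 0, against 48.4% of all genes, with a median log2 fold change of -0.12. At an unadjusted edgeR p under 0.05, 1 was higher, against 7.95% of all genes. Isg15, a ubiquitin-like protein, was at 2.95, 5.83, 2.85 and 4.42 CPM in LWT and at 8.20, 3.93, 11.5 and 6.32 CPM in LΔRbfox2. For Isg15 the log2 fold change was 0.89 ± 0.36 (SE, n = 4 per genotype, edgeR adjusted p = 0.504). The 3 highest values were in LΔRbfox2 replicates 1, 3 and 4. Ifit1, an RNA-binding antiviral protein, was at 5.24 to 7.35 CPM in LWT and 5.79 to 12.2 CPM in LΔRbfox2. For Ifit1 the log2 fold change was 0.52 ± 0.24 (SE, n = 4 per genotype, edgeR adjusted p = 0.508). Irf1, a transcription factor of the inducible subunits, was at 11.4 to 14.5 CPM in LWT and 10.2 to 14.1 CPM in LΔRbfox2, with a log2 fold change of 0.0048. The interferon median was -0.18 without LΔRbfox2 replicates 3 and 4, with 0.57 for Isg15, 0.44 for Ifit1, -0.19 for Irf1 and 0 genes at an unadjusted p under 0.05. At that p 82 of 14602 genes tested were higher and 89 lower in the same setting.

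Immune cells carry more immunoproteasome than hepatocytes do, so their markers were read beside the inducible subunits. All 5 Kupffer cell markers were detected and all had a log2 fold change below 0, where 48.4% of all genes tested lay above 0. At an unadjusted edgeR p under 0.05, 2 of these markers were lower, against 1.83% of all genes. The summed level of the Kupffer cell markers was 61.1 to 105 CPM in LWT and 35.4 to 67.8 CPM in LΔRbfox2. Of 9 markers of lymphocytes and other leucocytes, 3 passed the filter on low counts, with a summed level of 19.2 to 40.1 CPM in LWT and 12.9 to 26.1 CPM in LΔRbfox2. All 3 lay below 0, and 1 was lower at an unadjusted edgeR p under 0.05, against 1.83% of all genes. Their median log2 fold change was -0.28, and -0.34 without LΔRbfox2 replicates 3 and 4, when 1 lay above 0. All 5 endothelial markers lay below 0, where 48.4% of all genes lay above 0, with sums of 58.1 to 75.2 CPM in LWT and 45.3 to 64.8 CPM in LΔRbfox2. For 5 stellate cell and fibroblast markers the sums were 63.6 to 123 and 82.6 to 125 CPM, and for 3 of 4 cholangiocyte markers that passed the filter they were 2.95 to 4.40 and 2.86 to 5.32 CPM. Above 0 lay 3 of these stellate cell and fibroblast markers and 3 of the cholangiocyte markers, and 5 and 1 without LΔRbfox2 replicates 3 and 4. The Kupffer cell median of the log2 fold change was -0.42 with all livers and -0.51 without LΔRbfox2 replicates 3 and 4. In that setting 0 Kupffer cell markers had an unadjusted p under 0.05, and 89 of 14602 genes tested were lower at that p. The part of these cells in the values of Psmb8, Psmb9 and Psmb10 was not tested.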

How the data were processed

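RNA-seq of poly(A) RNA from 8 livers was analysed. The authors aligned reads to GRCm38 with TopHat2 2.0.11 under a strand-specific (fr-firststrand) setting, counted them per gene with featureCounts (version, and strand and multi-mapping settings of the counting, not given in the sources used here; CASAVA 1.8.4 is also named in the submitters' processing notes) and deposited raw counts without normalization for 46078 identifiers. GENCODE M21 (GRCm38) supplied symbols, positions, exon lengths and GC content for 45143 of them. Because the strand setting of the counting is not given, reads of genes overlapping on opposite strands may not be separated. Columns were matched to livers by the sample descriptions, and 0 were left unmatched.

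In R 4.3.3, edgeR 4.0.16 filterByExpr (minimum count 10, minimum total 15) kept 13856 genes. TMM, glmQLFit and glmQLFTest gave the genotype difference, without covariates, and p was adjusted by Benjamini-Hochberg over all genes tested, with an adjusted p of at most 0.05 as threshold. Standard errors came from limma-voom (limma 3.58.1), and log2 CPM used a prior count of 2. Tables were made in Python 3.11.15 (pandas 2.3.3, numpy 2.4.6, exact tests in scipy 1.17.1) and drawn with matplotlib 3.10.9. The fits were run on simulated data in which genes varied independently of each other. Such data lack the variation shared across genes in these livers, so they cannot show how the tests behave with it. The members and lists were chosen with earlier results of these data known. Genes given in full were Rbfox2, Psmb5 to Psmb10, the highest and lowest log2 fold change of each group of members, any member without overlap, the 2 smallest unadjusted p of each pathway list, and the controllers Nfe2l1, Nfe2l2 and Irf1; other members were given by range and count, and further genes for an overlap in position. Single results for some genes of these lists are not reported here. Alternatives were DESeq2 1.42.0 (size factors and test), upper-quartile factors, limma-voom, other count filters, a replicate block, GC and length corrections (lowess, span 0.3) and each liver left out, and after seeing the data library totals and both LΔRbfox2 livers of low TMM factor left out. Count floors cover counting error only.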

Additional observations from a re-analysis of the deposited data

Results flagged for a closer look

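In 96 groups of 4 livers (48 members in 2 genotypes), Dixon's test for an extreme value set apart 2, where chance gives about 4.8. The 20S assembly chaperone Psmg2 was at 7.07 CPM in LΔRbfox2 replicate 3 against 5.73 to 5.85 CPM in the other 3 livers of its genotype. Psmg3, which acts with Psmg4 in the same assembly, was at 2.94 CPM in LΔRbfox2 replicate 2 against 4.55 to 4.94 CPM in the others.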

How the results depend on the processing

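No member passed an adjusted p of 0.05 under any alternative run (edgeR, DESeq2 or limma-voom), so sign and size are what can change. Of 623 log2 fold changes of members recomputed with all livers or without LΔRbfox2 replicates 3 and 4, 59 took the other sign, and of 384 with 1 liver left out, 14 did. The cause was not tested. The count of members higher at an unadjusted p under 0.05, 7 in the report, was 4 with upper-quartile factors, 4 with GC correction, 0 with library totals, 0 without LΔRbfox2 replicates 3 and 4, and 0 to 24 with 1 liver left out. The median of the alpha ring was 0.28 with GC and length correction, and without LΔRbfox2 replicates 3 and 4 it was 0.27, with 0.16 for the structural beta subunits and 0.16 for the constitutive core.

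The livers of both genotypes share replicate numbers, and the labels do not say whether the numbers pair them. Deviations of same-numbered livers from their genotype means had correlations across genes of 0.13, -0.61, 0.12 and -0.51. As 1 principal component held 54.1% of the variance, these values cannot decide whether the livers are paired. With the replicate block the count of members at an unadjusted p under 0.05 was 0, the count at an adjusted p of 0.05 was 0 and the members' median was 0.35. Of 13856 genes tested, 229 were higher and 106 lower at that unadjusted p. With the replicate block and both corrections the count of members was 1, where 175 of all genes were higher and 192 lower. The alpha ring median was then 0.28, and the log2 fold change was 0.034 for Psmd3, -0.27 for Psmc5, -0.14 for Psmc1, -0.015 for Psmg1, -0.20 for Psmg2, -0.017 for Psmc2, -0.050 for Psmd7 and -0.30 for Psme2b.

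Other values that took the other sign are given by setting. Psmd1 was at -0.0092 with DESeq2 size factors, -0.044 with upper-quartile factors, -0.0091 with the DESeq2 test, -0.010 with 10 counts in every library, -0.033 with no filter and -0.050 with GC correction. Psmc5 was at -0.025 with upper-quartile factors and -0.014 with no filter, and Psmc2 at -0.041 with GC correction. With length correction the values were 0.041 for Psmd11, -0.26 for Psmc5, -0.067 for Psmc1, -0.065 for Psmb5, -0.0024 for Psmg1, -0.077 for Psmg2, -0.096 for Psmb10, -0.0032 for Psmd7, 0.023 for Psme4 and -0.19 for Psme2b. With GC and length correction they were 0.027 for Psmd3, -0.26 for Psmc5, -0.13 for Psmc1, -0.014 for Psmg1, -0.18 for Psmg2, -0.029 for Psmc2, -0.056 for Psmd7 and -0.28 for Psme2b. With library totals, chosen after seeing the data, they were -0.0042 for Psmd4, -0.21 for Psmc5, -0.038 for Psmd12, -0.11 for Psmc1, -0.045 for Psme1, -0.077 for Psmg2, -0.20 for Psmd1, -0.14 for Psmd5, -0.10 for Psmc2, -0.032 for Psmc4, -0.066 for Psmb10, -0.16 for Psmf1, -0.096 for Psmd7 and -0.082 for Psmb9. Without LΔRbfox2 replicates 3 and 4, also chosen after seeing the data, they were 0.026 for Psmd3, -0.055 for Psmc5, -0.011 for Psmc1, -0.050 for Psme1, -0.065 for Psmd5, -0.010 for Psmc2, -0.045 for Psmd7, 0.035 for Psme4, -0.23 for Psme2b and 0.0087 for Psme3. With 1 liver left out, values spanned 0 for Psmb9 (-0.061 to 0.36), Psmc5 (-0.082 to 0.12), Psmd1 (-0.082 to 0.064), Psmd11 (-0.13 to 0.023), Psme3 (-0.15 to 0.020) and Psmf1 (-0.088 to 0.16).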
